A study of Mus musculus with 2 samples.

Results

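The MYC, MAX and MXD network was read as 10 genes, of 18193 genes with a single gene symbol on the array, on 1 array of P25-stimulated and 1 array of non-stimulated mouse splenic antigen-presenting cells (APCs). The genes were chosen by name, and all probe sets whose only annotated symbol was one of them were taken, 24 in all. The APCs came from the spleen of female C57BL/6 mice, 10 weeks old, and were kept overnight with P25 for one array or with medium for the other. Both cultures also held CD4+ T cells carrying the P25 T cell receptor, which recognises the mycobacterial peptide P25 on MHC class II. The APCs were enriched after culture, and RNA of 3 independent experiments was mixed before hybridisation to 1 array per condition. There is therefore no replicate spread and no test, and each value below describes these 2 arrays. APCs are a mixture of B cells, dendritic cells and macrophages. Neutrophil markers also had signal on both arrays, summing over 7 markers to 6885 with P25 and 12753 with medium. In such a bulk sample fewer cells of a type and less RNA per cell cannot be told apart.

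MYC, MYCN and MYCL are basic helix-loop-helix leucine zipper transcription factors that bind the E-box CACGTG only as dimers with MAX, and then activate genes of growth, ribosome production and cell cycle entry. The MXD proteins, MXI1 and MNT bind the same sites as dimers with MAX but recruit the SIN3 corepressor with histone deacetylases, so they oppose MYC on shared targets. MLX is a second partner, which dimerises with MNT and some MXD proteins and with the glucose-responsive factors MondoA and ChREBP. In lymphocytes, Myc is known as an early gene of activation, while several MXD genes are known for expression in resting or differentiated cells.

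With P25, Myc was 4.78-fold higher, and 4 of the 5 repressor genes had log2 ratios (P25 over medium) below 0. The median log2 ratio over all measured genes was 0.02, so a ratio below 0 was itself common. Mxd4 was 3.14-fold lower and Mxd1 2.29-fold lower, Mxi1 and Mnt were lower but within 2-fold, and Mxd3 was the exception with a ratio of 3.63-fold higher on its brightest probe set. All 10 genes were measured, meaning that their brightest probe set exceeded a floor of 10.3 signal units on at least 1 array. Of the 10, 2 were at least 2-fold higher and 2 at least 2-fold lower, against 9.43% and 7.22% of all 12897 measured genes. Of the 24 probe sets 19 were measured, 2 of them at least 2-fold higher and 6 at least 2-fold lower. The shares over all measured probe sets were 9.15% and 7.6%. With both arrays brought to one median, 1597 genes passed 2-fold upward and 653 downward, so 71.0% of the calls were on the higher side against 56.6% on the deposited scale. That scaling and one on the spike-in controls shifted the median over all genes to log2 ratios of 0.15 and 0.16, and put Mycn past 2-fold (1.06 and 1.07). The counts of members are small. Of the 6 lower probe sets, 5 were of repressor genes, which held 12 of the 19 measured ones. Of these 5, 3 were of Mxd4, 1 of Mxd1 and 1 of Mxd3, whose brightest probe set was higher. The median log2 ratio was 0.91 over the 3 activator genes, which is the value of Mycn, a gene whose probe sets disagree. It was -0.99 over the 5 repressor genes and 0.02 over all measured genes. With each gene read as the median over its probe sets, the medians were 0.10 for the activators and -0.71 for the repressors. The 0.10 is the ratio of Mycl, a lower bound because its medium signal of 5.31 lay below the floor. Technical disagreement was gauged in 5293 genes from their brightest pair of probe sets, between which the log2 ratio had an SD of 0.58. That SD was 0.68 where the second probe set had a signal under 100, by its mean of log2 signals. The second probe sets of Mxd1, Mxd3, Mxd4 and Mxi1 did, and that of Mlx did not.

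**Figure D1:**
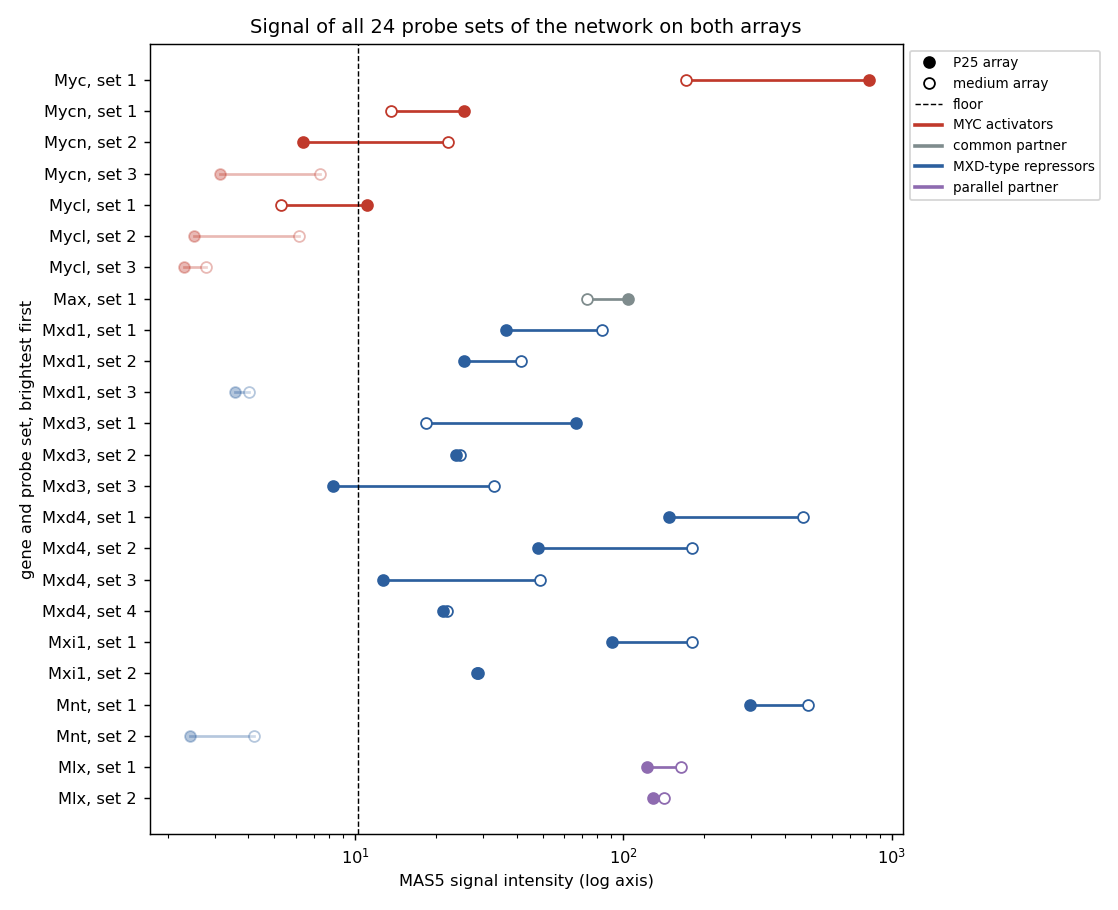
MAS5 signal intensity (x axis, logarithmic) of each of the 24 probe sets of the network genes (y axis), with filled circles for the P25 array, open circles for the medium array and a dashed line at the floor of 10.3. Pale rows are the 5 probe sets below the floor on both arrays. The Myc probe set lies at 820 with P25 and 172 with medium, and 3 of the 4 Mxd4 probe sets lie far to the left with P25.

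The network's binding site stands in the promoters of several of its own genes, which are shown here for that reason. RefSeq promoter sequences (build GRCm38.p6, from 250 bases before to 50 bases after each transcript start) were held for 9 of the 10 genes, all but Myc. A search for CACGTG, which reads the same on both strands, found it in 4 of these 9 genes, Max, Mxd4, Mnt and Mlx. By promoter this was 4 of 11, against 7.15% of all 32851 promoters. By gene, 11.4% of the 10430 measured genes with a promoter entry held the site. A match describes letters in a window and does not show that a protein binds there. The windows below run 5′ to 3′ on the gene's strand, with CACGTG in capitals. The Max window (chr12:76962246-76962308, minus strand) holds it across the transcript start, at -3 to 3. The Mxd4 window (chr5:34187900-34187960, minus strand) holds it at -219 to -214. The Mnt window (chr11:74830774-74830834, plus strand) holds it at -123 to -118, and the Mlx window (chr11:101087220-101087280, plus strand) at -40 to -35.
Max: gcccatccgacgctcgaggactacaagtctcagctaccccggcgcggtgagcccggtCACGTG
Mxd4: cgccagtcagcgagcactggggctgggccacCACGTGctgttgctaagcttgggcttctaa
Mnt: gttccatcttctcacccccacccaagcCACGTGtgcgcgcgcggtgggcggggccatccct
Mlx: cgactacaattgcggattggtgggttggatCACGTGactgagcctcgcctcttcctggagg
The data at these 4 genes went both ways. Max had a log2 ratio of 0.50, while Mxd4, Mnt and Mlx had -1.65, -0.71 and -0.42.

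Among the activators, Myc was read by 1 probe set, 1424942_a_at, with a signal of 819.8 with P25 and 171.6 with medium. Both values were far above the floor, so this ratio rests on 2 well-measured signals. Its log2 ratio of 2.26 was the 100th highest of the 12897 measured genes, and 0.768% of them had a higher one. With no other probe set of Myc on the array under a single symbol, the value had no second reading. Mycn, the family member known from neural and early progenitor cells, was dim and its probe sets disagreed. One gave 25.5 with P25 and 13.5 with medium (1.89-fold higher), the next 6.38 and 22.2 (at least 2.15-fold lower, since the P25 signal was below the floor), and the last was below the floor on both arrays. No direction can be given for Mycn from these signals. Mycl, known from dendritic cells, was barely measured, with a signal of 11.1 with P25 and 5.31 with medium on 1 probe set and its other 2 below the floor on both arrays. Of the 3 activator genes, Myc was therefore the one with signals far above the floor. Max, the partner that activators and repressors share, had 104 with P25 and 73.2 with medium on its only probe set, 1.42-fold higher and within 2-fold.

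Among the repressors, Mxd4 had the lowest ratio and the most probe sets. Its brightest probe set had a signal of 148 with P25 and 465 with medium. The next had 48.0 with P25 and 180 with medium, a log2 ratio of -1.91. Another gave 12.7 and 48.7, a log2 ratio of -1.94, and the last 21.3 and 22.0, a log2 ratio of -0.05. So 3 of 4 probe sets were over 3-fold lower with P25, and 1 dim probe set did not differ by 2-fold. The ratio on the brightest was the 170th lowest of all measured genes, and 1.31% had a lower one. Mxd1, the founding MXD repressor, had 36.5 with P25 and 83.5 with medium on its brightest probe set. Its second probe set gave 25.5 and 41.7, 1.64-fold lower, and its remaining one was below the floor on both arrays. Both measured probe sets of Mxd1 were thus lower with P25, 1 of them past 2-fold, and 4.28% of measured genes had a lower ratio.

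Mxi1, the MXD family member once named Mad2, lay at the edge of the threshold. Its brightest probe set had a signal of 90.9 with P25 and 181 with medium, 1.99-fold lower. Its other probe set, at 28.6 and 28.4, gave a log2 ratio of 0.01. The Mxi1 result is thus carried by 1 of its 2 probe sets. Mnt, the most widely expressed of the MAX-bound repressors, had 296 with P25 and 485 with medium, 1.64-fold lower, and a second probe set below the floor on both arrays. Mlx, the parallel partner, was within 2-fold on both of its probe sets, with 123 and 129 with P25 against 164 and 141 with medium. Their log2 ratios were -0.42 and -0.13.

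Mxd3, known for expression in S phase of dividing cells, gave 3 probe sets that contradict each other. The brightest, 1438847_at, had a signal of 66.8 with P25 and 18.4 with medium. The probe set 1448878_at had 23.7 and 24.7, and 1422970_at had 8.28 and 33.0, at least 3.21-fold lower because its P25 signal was below the floor. Among 2823 genes with 3 or more measured probe sets, 28 (0.992%) had probe sets past 2-fold in both directions, and Mxd3 was one of them. The median of its 3 log2 ratios was -0.06, so its place on the higher side depends on which probe set stands for the gene.

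**Figure D2:**
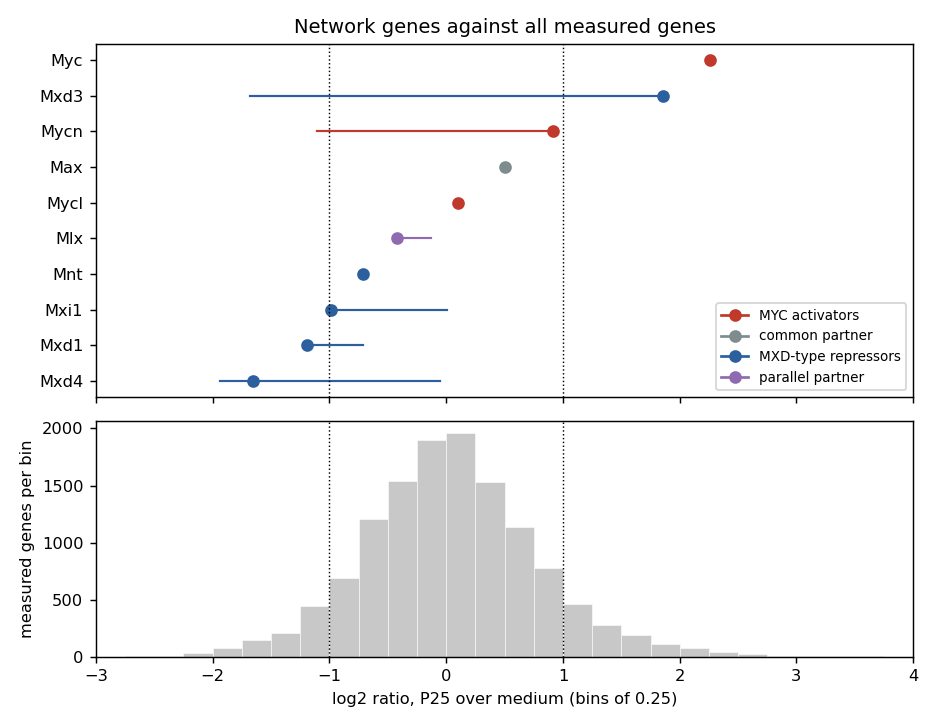
Upper panel: log2 ratio of P25 over medium (x axis) of each network gene (y axis) on its brightest probe set (point), with a line from the lowest to the highest ratio over its measured probe sets. Lower panel: the number of measured genes (y axis) per bin of 0.25 in log2 ratio. Dotted lines mark 2-fold. Myc (2.26) and Mxd4 (-1.65) lie in opposite tails, and the line of Mxd3 runs from -1.68 to 1.86.

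Of 3 further genes of the extended network, 2 were measured, both within 2-fold on their brightest probe sets. Mga, which encodes a large MAX-binding repressor, had a signal of 543 with P25 and 773 with medium, with log2 ratios from -0.77 to 1.07 over its 4 measured probe sets. Mlxip, which encodes MondoA, had 425 and 612, a log2 ratio of -0.53. Mlxipl, which encodes ChREBP, was below the floor on both arrays. Of 2 known targets of MondoA with MLX, Txnip, an inhibitor of glucose uptake, was 3.09-fold lower, at 1054 with P25 and 3259 with medium, and -1.80 in log2 ratio on its other probe set. Arrdc4, its relative, was dim (12.2 and 17.4) and within 2-fold.

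Genes that MYC is known to activate were higher with P25. Of 24 listed and measured, 21 passed 2-fold upward, none passed it downward, and all 24 had a log2 ratio above 0. Their median was 2.88-fold (log2 ratio 1.53, against 0.02 over all measured genes, of which 9.43% were at least 2-fold higher). This list was chosen with earlier results of these data known, so its direction is no independent evidence. Ccnd2, a D-type cyclin, had the highest ratio at 9.61-fold, with a signal of 5556 with P25 and 578 with medium. Its 7 measured probe sets gave log2 ratios from 3.26 to 4.65. Srm, which makes spermidine, was 6.19-fold higher (2202 and 356), and the amino acid transporter gene Slc7a5 was 5.71-fold higher (356 and 62.4). Odc1, the first enzyme of polyamine synthesis and a classic MYC target, had 2699 and 930. The nucleolar genes Nolc1 and Nop58 were 4.49-fold and 4.04-fold higher. The 3 genes within 2-fold were the nucleolar protein genes Ncl (1.80-fold), Pes1 (1.63-fold) and Npm1 (1.53-fold). The probe sets of Ncl ran from 0.14 to 2.19 in log2 ratio, and the second probe set of Bop1 had -0.07 against 1.42 on the brighter. Npm1 had 1.03 on its other probe set, past 2-fold. Conversely, probe sets of Ddx18, Pa2g4, Cad and Tfrc were as low as 0.27, 0.36, 0.76 and 0.90.

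Of these 24 genes 17 had a promoter entry, and 5 of the 17 held CACGTG, namely Cdk4, Ldha, Apex1, Hspd1 and Pes1. Among all 10430 measured genes with a promoter entry, 11.4% held the site, and the count here is small. Cdk4, the kinase partner of the D-type cyclins, and Ldha, which makes lactate from pyruvate, are shown because they hold it more than once upstream of the start. Cdk4 holds 4 copies in chr10:127063355-127063534 (plus strand), and Ldha holds 2 in chr7:46845654-46845764 (plus strand), again 5′ to 3′ with CACGTG in capitals.
Cdk4: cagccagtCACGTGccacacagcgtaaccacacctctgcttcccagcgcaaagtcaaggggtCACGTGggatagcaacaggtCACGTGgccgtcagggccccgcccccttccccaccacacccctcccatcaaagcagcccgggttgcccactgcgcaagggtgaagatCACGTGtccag
Ldha: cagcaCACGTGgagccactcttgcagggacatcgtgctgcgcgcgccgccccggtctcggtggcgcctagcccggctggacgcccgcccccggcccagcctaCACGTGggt
Cdk4 was 2.51-fold higher with P25 (1024 and 407), with log2 ratios from 1.33 to 1.60 over 3 probe sets. Ldha was 2.96-fold higher (2886 and 975) on its single measured probe set.

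Genes that MYC is known to repress were fewer and went both ways. Of 7 measured, 3 were at least 2-fold lower and 1 at least 2-fold higher, with a median log2 ratio of -0.81, where 7.22% of all measured genes were lower by that measure and 9.43% higher. Cebpa, a myeloid transcription factor gene, was 3.42-fold lower but dim with P25 (11.5 and 39.4). The growth arrest gene Gadd45a was 3.23-fold lower (59.6 and 192), and Ndrg1, a differentiation gene, was 2.40-fold lower (31.2 and 74.9) with all 5 of its probe sets below 0 in log2 ratio. The gene of the CDK inhibitor p27, Cdkn1b, had 259 with P25 and 453 with medium, 1.75-fold lower. By contrast Cdkn1a, which encodes the CDK inhibitor p21, was 2.09-fold higher (88.4 and 42.3), and 0.35 in log2 ratio on its other probe set. The last 2, Cdkn2b and Ndrg2, were dim and within 2-fold, with log2 ratios of -0.11 and 0.47. With the floor at the 60th percentile of signal, 1 gene of this list was at least 2-fold lower. With no floor, or with the median over probe sets, 0 genes were at least 2-fold higher, so Cdkn1a no longer passed.

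**Figure D3:**
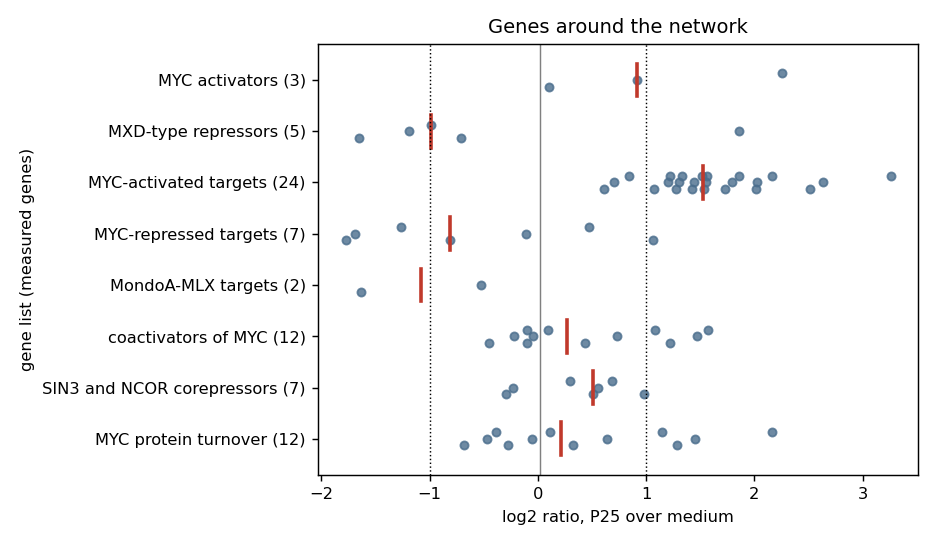
Log2 ratio of P25 over medium (x axis) of each measured gene (points, spread vertically for legibility) in 8 lists (y axis, with the number measured), with a red bar at each list's median. The grey line is the median of all measured genes and dotted lines mark 2-fold. The points of the MYC-activated targets all lie right of 0, with a median of 1.53.

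The cofactors showed smaller differences. Among 12 coactivator genes, 4 passed 2-fold upward and none downward, and the median log2 ratio was 0.27. Over all measured genes the shares were 9.43% and 7.22%. The paired ATPase genes Ruvbl2 (1110 and 372) and Ruvbl1 (673 and 243) were 2.98-fold and 2.77-fold higher, and the actin-like subunit gene Actl6a was 2.33-fold higher, though -0.36 in log2 ratio on one of its other probe sets. The acetyltransferase gene Kat2a was 2.12-fold higher, with log2 ratios from 0.54 to 1.08 over its 3 measured probe sets. Wdr5 and Smarcb1, within 2-fold on their brightest probe sets, reached log2 ratios of 1.31 and 1.10 on another. At the other end were Trrap, the scaffold that MYC binds, at -0.45, Kat5 at -0.22 and Ccnt1 at -0.10. On the repressor side, none of 7 measured SIN3 and deacetylase genes passed 2-fold in either direction on its brightest probe set. The scaffolds that MXD proteins bind, Sin3a and Sin3b, had log2 ratios of -0.30 and -0.23, while Hdac2 had 0.98, Rbbp7 0.69, Sap30 0.56 and Rbbp4 0.29. Other probe sets of Hdac2 and Rbbp7 reached 1.07 and 1.18, past 2-fold. Those of Rbbp4 ran from -0.47 to 0.79, and Sin3b reached 0.49. Hdac2 passed 2-fold with median and with spike-in scaling.

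Cell type markers differed on the same arrays, where 9.43% of all measured genes passed 2-fold upward and 7.22% downward. Of the 8 T cell markers, Cd3e, Cd3d and Cd4 were below the floor on both arrays, and the summed signal of the 5 measured ones was 75.4 with P25 and 68.7 with medium. Of 7 B cell markers 1 was at least 2-fold lower, with summed signals of 17397 and 23971. Among the 8 measured markers of macrophages and monocytes, 6 were past 2-fold on the lower side (summed signals 517 and 1276), as were 6 of 7 neutrophil markers (6885 and 12753). Of the lower macrophage and monocyte markers, Mertk, C1qb and Ccr2 were dim with medium and below the floor with P25. Another Ccr2 probe set had a log2 ratio of -0.13. Of 5 measured dendritic cell markers, Zbtb46 was past 2-fold on the higher side and Sirpa on the lower (summed signals 225 and 330). The macrophage marker C1qa and the dendritic cell marker Xcr1 were below the floor on both arrays. Of 6 measured cell division genes 4 were at least 2-fold higher, with summed signals of 10797 and 4535. The part of these differences in the lower Mxd1, Mxd4 and Cebpa, or in the higher Myc targets, was not tested.

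Most network genes kept their side of 0 under the other settings tried. Median and spike-in scaling shift every gene above the floor by the same log2 amount. Myc and Mnt each had 1 measured probe set, with signals far above the floor. Their ratios therefore could not change with the other percentile floors or the median over probe sets. Over 8 settings of scaling, floor and probe set choice, the log2 ratio of Myc ran from 2.16 to 2.41 and that of Mxd4 from -1.78 to -1.50. Mxd1 ran from -1.19 to -0.92, under 2-fold with no floor and with the median over probe sets, Mnt from -0.78 to -0.56 and Mxi1 from -0.99 to -0.49. Max ran from 0.43 to 0.65 and Mlx from -0.42 to -0.27. Mycl ran from 0.08 to 1.06 and passed 2-fold with the floor at the 20th percentile of signal. Mxd3 (-0.06 to 2.01) and Mycn (-0.10 to 1.07) took both signs, the negative ones with the median over probe sets.

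**Figure D4:**
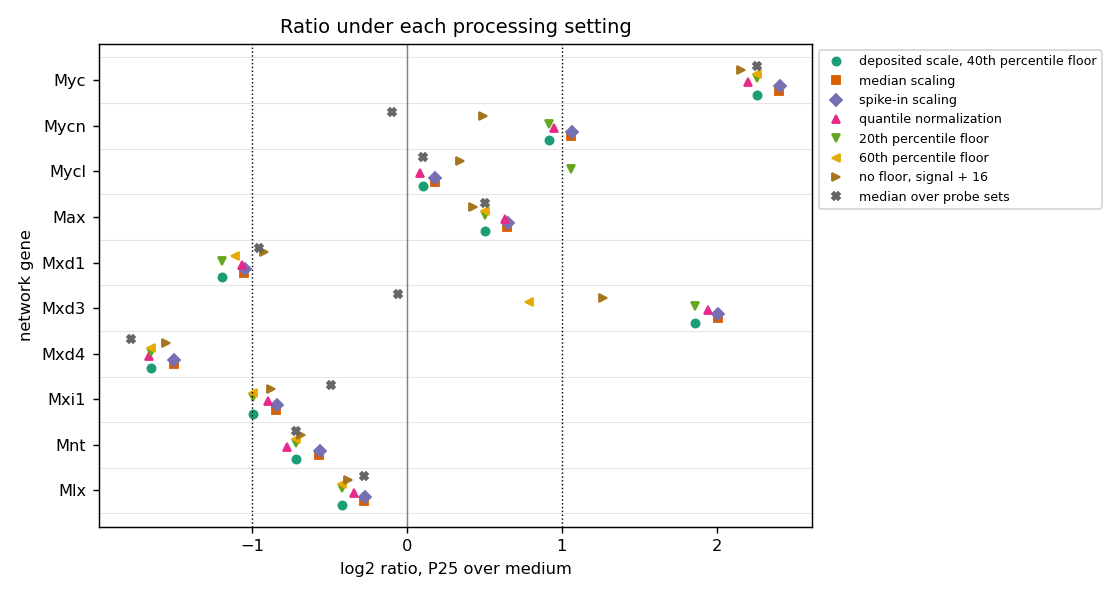
Log2 ratio of P25 over medium (x axis) of each network gene (y axis) under 8 processing settings, 1 symbol each. Dotted lines mark 2-fold. Mycn and Mycl have no symbol for the 60th percentile floor, at which they were not measured. Myc stays between 2.16 and 2.41, while Mxd3 spreads from -0.06 to 2.01.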

How the data were processed

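Per the submitters' processing notes, the authors made the deposited signal intensities with MAS5 in GCOS, as 1 linear value per probe set. The scaling target and detection calls are not known here. Because MAS5 subtracts the signal of mismatch probes, low signals give noisy ratios. Of 45101 probe sets, 64 were controls, 34945 had 1 gene symbol, 932 several and 9160 none. Symbols came from the platform annotation, updated through RefSeq (GRCm38.p6) by Entrez number. Signals below a floor at the 40th percentile over both arrays (10.3) were raised to it; where 1 array lay there, the ratio is written "at least". Each gene was read on the probe set with the highest mean of log2 signals, and counted at 2-fold. No p-value was computed, since each condition has 1 array. Groups follow the treatment label, and a batch and the treatment cannot be told apart. The network genes, lists and rules were chosen with earlier results of these data known. Named are all network genes, plus the 3 highest and 3 lowest genes of a list or those a sentence counts; Odc1, Cdk4, Ldha, Bop1 and some others were named after their values were seen. The method was tested on simulated data, in which only genes above the floor on both arrays were changed. That test does not cover genes below the floor on 1 array, or variation between repeated arrays. Alternatives were other scalings, floors and probe set rules. Tools were Python 3.11.15, pandas 2.3.3 and numpy 2.4.6. The number of arrays limits the precision.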

Additional observations from a re-analysis of the deposited data

How the results depend on the processing

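With the floor at the 20th percentile of signal, 2438 genes passed 2-fold upward and 1933 downward. With the 60th percentile floor 591 passed it downward, and with no floor and 16 added to each signal 576. With the 60th percentile floor 1 network gene (Myc) was at least 2-fold higher, and the activators' median log2 ratio became 2.26, since Myc was the only one of them measured. With the median over a gene's probe sets that median became 0.10, the value of Mycl with its medium signal below the floor. At that setting 1 network gene (Myc) was at least 2-fold higher and 1 (Mxd4) lower, and Mxd3 reversed to -0.0598. With no floor 1 network gene (Mxd4) was at least 2-fold lower. Spike-in scaling gave 1611 genes higher and 638 lower (71.6% higher). The median of the MYC-activated targets ran from 1.33 (quantile normalization) to 1.68 (spike-in scaling). Dim probe sets limit Mycn, Mycl and Mxd3, and no array was repeated. No paired analysis was possible because each condition has 1 array.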

Other observations

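Genes that control the turnover of MYC protein lay on both sides of no difference, and those past 2-fold were all higher with P25. Of 12 measured, 4 passed 2-fold upward with P25 and none downward, and the median log2 ratio was 0.22. Over all measured genes these shares were 9.43% and 7.22%. Cip2a, an inhibitor of the phosphatase PP2A that protects MYC from degradation, had a signal of 163 with P25 and 36.3 with medium, 4.49-fold higher. Its other measured probe set gave a log2 ratio of 1.01. Skp2, a ubiquitin ligase subunit, was 2.73-fold higher (175 and 64.1), with all 6 of its measured probe sets from 0.88 to 1.80. The mitotic kinase genes Plk1 and Aurka were 2.44-fold and 2.22-fold higher. Fbxw7, the ubiquitin ligase subunit best known for degrading MYC, had 291 and 269, a log2 ratio of 0.11. The lowest were Gsk3b (-0.68), which encodes the kinase that marks MYC for that ligase, Usp28 (-0.47) and Ppp2r5a (-0.39). Among 6 measured cell division genes, 4 were at least 2-fold higher on the same arrays, and their part in these values was not tested.

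Across the whole array, a CACGTG in the promoter went with only a small difference. Of 1184 measured genes with the site, 11.5% passed 2-fold upward and 6.33% downward, around a median log2 ratio of 0.06. Of 9246 measured genes without it, 9.30% were higher and 7.35% lower, with a median of 0.02. For 124 genes with 2 or more copies in a single promoter, 9.68% were higher and 6.45% lower, with a median of -0.03. With each gene read on its promoter of highest GC content, the median GC content was 63.7% with the site and 61.0% without. Base composition thus moves with the site, though the number of promoters per gene was not taken into account. These shares are across genes, which are not independent replicates.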
